A study of Homo sapiens with 60 samples.

Results

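The genes of oxidative phosphorylation were followed in HT29 cells, a human colorectal adenocarcinoma line, after 24 hours with plant extracts. They comprise the 13 messenger RNAs of the mitochondrial genome and the nuclear genes for the subunits of the respiratory chain and the ATP synthase, taken by symbol: NDUFA, NDUFB, NDUFC, NDUFS and NDUFV genes (complex I), SDHA to SDHD (complex II), UQCR genes and CYC1 (complex III), COX4 to COX8 genes (complex IV) and ATP5 genes (complex V). Of 101 symbols that matched, 94 had a mean of at least 1 CPM (the gene's counts scaled to a library of 1e6 counts) over the 60 libraries, 13 mitochondrial and 81 nuclear, out of 60675 gene entries in all. The 7 below that level were COX4I2, COX6A2, COX6B2, COX7A1, COX7B2, COX8C and ATP5MGL. All 94 passed the filter on low counts and were tested.

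Oxidative phosphorylation needs both genomes. Complexes I, III, IV and V each join subunits translated inside the organelle to subunits made in the cytosol and imported, whereas complex II is wholly nuclear. The mitochondrial DNA is transcribed as long units that are cut into separate RNAs, mostly at the transfer RNAs that lie between the genes, so messengers of the same strand share a promoter and differ mainly through processing and stability, while each nuclear subunit has a promoter of its own.

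All cells were the same line, with no genetic change named in the labels. Extracts of 6 plants made with ethanol were each given at 3 doses, 500 (high), 100 (medium) and 20 (low) µg/mL: Astragali Radix, Cinnamomi Cortex, Cnidii Rhizoma, Paeoniae Radix and Rehmanniae Radix Preparata with 3 libraries a dose, and Angelicae Gigantis Radix at 320, 64 and 12.8 µg/mL with 2. By the series' design text, a top dose under 500 µg/mL is one that inhibited the cells by 20%. Another 3 libraries came from cells given the DMSO vehicle, stated as 0.1% in the sample labels and 2% in the design text, and 2 formulas, Samul-tang and Sagunja-tang, had 1 library a dose. Whether replicates were separate cultures is not stated, and the p-values therefore reflect a spread between libraries that may be technical only. All sample titles, vehicle included, carry the same label, BatchD. A high and a low dose of an extract always carry the same prefix in the sample codes, whereas the vehicle libraries have a prefix of their own, so prefix and treatment cannot be told apart in comparisons with vehicle. The sample labels give no DMSO level for the extract libraries, so a difference in solvent cannot be told apart there either.

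Library totals ran from 17798492 to 31134188 counts, with 21247 to 24191 genes detected. Epithelial markers were present throughout, with all 12 detected in every library (KRT8 at 4682 CPM or more, EPCAM at 499 or more). However, CDX1, GPA33, CDX2, CDH17 and CEACAM5 were low, with medians of 0.763, 3.54, 4.19, 4.31 and 7.03 CPM. Of 8 markers of other cells, PTPRC, CD3E, DCN, COL3A1 and VWF were at 0 in 19 to 54 libraries and never above 0.506 CPM, whereas CD68 (4.01 to 54.5 CPM), COL1A1 (0.797 to 7.25) and PECAM1 (0.537 to 2.53) were detected in all of them. The 3 high-dose libraries of Astragali Radix stood apart from the rest and from each other, and were therefore fitted only with the groups they are compared with. Unless stated otherwise, changes below are log2 fold changes ± SE from edgeR's quasi-likelihood test after TMM scaling (which sets libraries to a common level over most genes), p-values are Benjamini-Hochberg adjusted over all genes tested, and genes are said to rise or fall where that adjusted p is below 0.05. In these bulk samples, fewer cells of a kind and less RNA per cell cannot be told apart.

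The mitochondrial messengers were far more abundant than the nuclear ones. Per kilobase of exon, the mean over 60 libraries was 13300 CPM for MT-CO3, a core subunit of complex IV, and 563 for MT-ND6, the lowest of the 13 and the only one read from the light strand. The highest nuclear member on that scale was COX8A, a small subunit of complex IV, at 454, and the lowest was NDUFV3 at 3.19. These means per kilobase did not overlap between the 2 genomes. In mean CPM not divided by length they did, with ATP5F1B at 525, MT-ATP8 at 417 and MT-ND6 at 296.

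The results turn on a stretch where mitochondrial genes adjoin. MT-ATP8 (chrM:8366-8572), MT-ATP6 (chrM:8527-9207) and MT-CO3 (chrM:9207-9990) lie one after another on the same strand with no transfer RNA between them, and carry subunits of the proton channel side of the ATP synthase and of complex IV. The end of MT-ATP8 and the start of MT-ATP6 are shown because they share 46 bases, printed in capitals, in different reading frames (GENCODE v29 transcripts, GRCh38, + strand, chrM:8497-8572 and chrM:8527-8602).
MT-ATP8 end: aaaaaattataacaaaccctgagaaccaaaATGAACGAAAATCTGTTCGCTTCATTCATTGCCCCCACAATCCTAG
MT-ATP6 start: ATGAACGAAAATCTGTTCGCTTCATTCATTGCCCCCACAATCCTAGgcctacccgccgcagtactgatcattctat
Reads from the shared bases fit both genes, which lie on 1 messenger, and the deposited counts divide them by an estimate. Values of MT-ATP8, 207 bases long, are therefore less certain than those of its neighbours.

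The nuclear genes are spread over many chromosomes. Of the 81, 66 had an entry in the RefSeq promoter table (GRCh38.p14), which covers 250 bases before to 50 after the start and was searched over that whole window. The motif GCGCATGCG of NRF1, a factor known for driving respiratory genes, was found on either strand in 11 of the 66 (16.7%), against 3.10% of 15241 protein-coding promoters of that length. CCGGAAG, the motif of the ETS family to which GABPA belongs, was found in 21 (31.8%) against 16.8%, and AAGATGGCG, the motif of YY1, in 9 (13.6%) against 3.29%. TATAAA was found in 6 (9.09%) against 12.4%. The ETS and YY1 motifs can overlap by their shared AAG. The promoters of COX6A1 and COX5B are shown because these complex IV genes recur in the results below, only as the 250 bases before the start, with matches in capitals: in COX6A1 (chr12:120437863-120438112, + strand) an NRF1 match and an ETS match, both on the reverse strand, and in COX5B (chr2:97645812-97646061, + strand) an ETS match on the forward strand.
COX6A1 promoter: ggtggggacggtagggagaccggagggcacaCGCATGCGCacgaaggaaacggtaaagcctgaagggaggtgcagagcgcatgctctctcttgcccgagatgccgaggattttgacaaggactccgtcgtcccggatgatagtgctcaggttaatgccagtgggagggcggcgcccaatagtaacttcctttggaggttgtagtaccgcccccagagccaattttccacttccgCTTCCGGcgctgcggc
COX5B promoter: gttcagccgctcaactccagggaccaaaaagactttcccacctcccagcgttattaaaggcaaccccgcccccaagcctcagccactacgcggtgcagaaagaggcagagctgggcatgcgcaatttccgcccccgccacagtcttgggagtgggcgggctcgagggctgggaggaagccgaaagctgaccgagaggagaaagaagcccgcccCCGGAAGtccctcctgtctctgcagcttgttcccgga
Such matches describe letters, not binding.

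Against vehicle, the low doses differed in opposite directions for the 2 genomes. The mitochondrial messengers together made up 8.0%, 9.15% and 10.5% of counts in the 3 vehicle libraries. In the 17 low-dose libraries of the 6 extracts they made up 6.27% to 8.56%, with a median of 6.72%. The ranges met through 1 low-dose library, Cinnamomi Cortex replicate 1 at 8.56%. The 81 nuclear genes together made up 0.800%, 0.757% and 0.718% in vehicle and 0.767% to 0.914% (median 0.866%) at low dose. The log2 ratio of mitochondrial to nuclear counts was 3.60 ± 0.28 (SD, n = 3) in vehicle and 3.00 ± 0.15 (SD, n = 17) at low dose, with overlapping ranges.

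**Figure D1:**
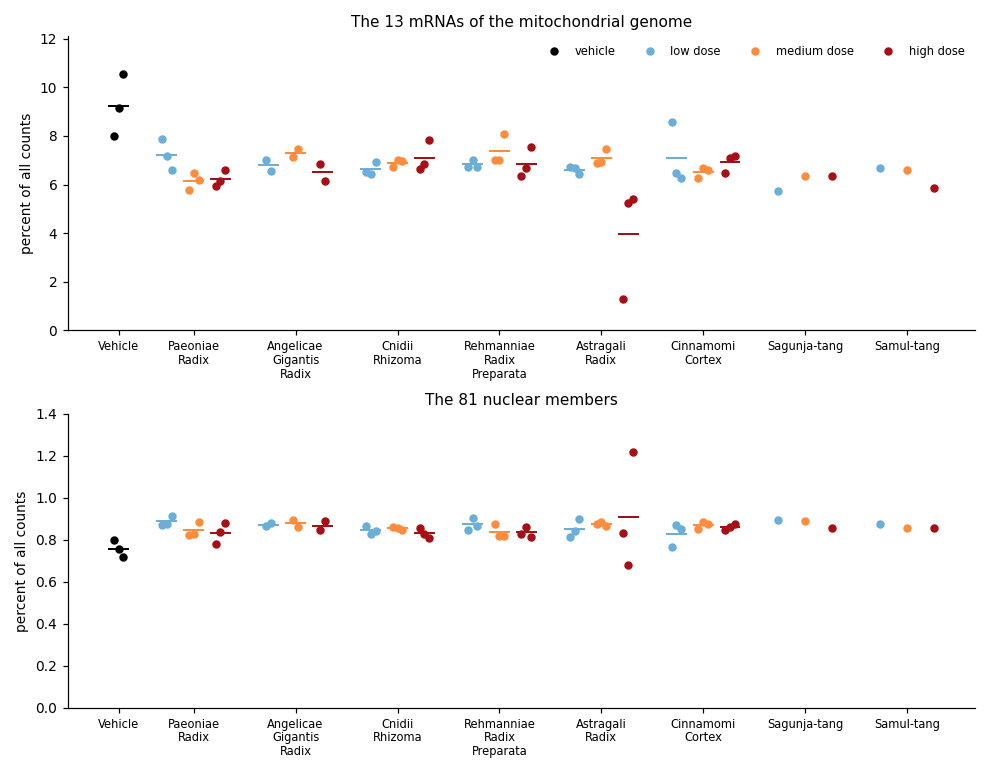
Share of library counts (%) from the 13 mitochondrial messengers and from the 81 nuclear oxidative phosphorylation genes in each library, by extract and dose. Vehicle libraries lie at 8.0% to 10.5% for the mitochondrial messengers, and the 3 high-dose Astragali Radix libraries at 1.28%, 5.22% and 5.41%.

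Of the 13 mitochondrial messengers, 12 were lower at the low doses than in vehicle, where 15.9% of all genes tested were lower. Their median difference was −0.51, against 0.004 over all genes tested. MT-CO1, the catalytic subunit of complex IV, stood at 19150, 20950 and 24220 CPM in vehicle, and at 14610 to 20730 (median 16150) in the low-dose libraries. MT-ND6, a complex I subunit, had the largest difference (−0.58 ± 0.12, adjusted p = 0.000101), with 385, 420 and 533 CPM in vehicle and 244 to 470 at low dose. The exception was MT-ND4L, another complex I subunit, at 1110, 1148 and 1164 CPM in vehicle and 950 to 1356 at low dose (−0.10 ± 0.08, adjusted p = 0.337). The 3 vehicle libraries did not overlap the 17 low-dose ones for 1 of these 13 messengers, as for 3.05% of all genes tested. The ribosomal RNAs of the organelle were lower as well, MT-RNR1 by −0.34 ± 0.06 (adjusted p = 4.12e-05) and MT-RNR2 by −0.36 ± 0.05 (adjusted p = 9.91e-07).

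Of the 81 nuclear genes, 48 were higher and 5 lower at the low doses than in vehicle (16.6% and 15.9% of all genes tested), with a median difference of 0.16. The count falls to 31 in all without vehicle replicate 3. Higher genes came from each complex: 21 of 36 in complex I (6 of its 7 nuclear core subunits), 2 of 4 in complex II, 6 of 10 in complex III, 8 of 12 in complex IV and 11 of 19 in complex V. NDUFV1, the flavin-binding subunit where NADH electrons enter complex I, had 99.9, 94.4 and 83.9 CPM in vehicle and 107 to 132 at low dose (0.34 ± 0.04, adjusted p = 1.8e-08), with no overlap. COX4I1, the ubiquitous form of a regulatory subunit of complex IV, had 130, 124 and 107 CPM in vehicle and 140 to 173 at low dose (0.35 ± 0.04, adjusted p = 2.41e-08), also with no overlap. ATP5F1B, the catalytic beta subunit of the ATP synthase, had 470, 438 and 391 CPM in vehicle and 472 to 537 at low dose (0.20 ± 0.03, adjusted p = 3.67e-07). For these genes vehicle replicate 3 was the lowest library.

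Among the further nuclear genes, NDUFA4, found in complex IV despite its name, differed by 0.32, SDHA, the flavoprotein of succinate dehydrogenase, by 0.16, NDUFS1, the largest iron-sulfur subunit of complex I, by 0.14, and NDUFB8, an accessory subunit of complex I, by 0.28. UQCRC2, a core protein of complex III, differed by 0.08 and ATP5F1A, the alpha subunit of the ATP synthase, by 0.22, and all of these were called higher. COX7A2L, a factor in joining complexes III and IV, was higher by 0.22 ± 0.05. The 5 lower genes were ATP5PF, a coupling subunit of the ATP synthase stalk (−0.31 ± 0.05, adjusted p = 4.64e-06), NDUFA7 (−0.17), NDUFA12 (−0.16), UQCRFS1, the Rieske iron-sulfur protein (−0.09), and ATP5F1C, the gamma subunit (−0.08). ATP5PF had 57.8, 61.2 and 68.9 CPM in vehicle and 48.0 to 56.6 at low dose, so the groups did not overlap. SDHB (0.03, adjusted p = 0.501), CYC1 or cytochrome c1 (0.03, adjusted p = 0.54), COX5A (0.07, adjusted p = 0.17) and ATP5IF1, the inhibitor of the ATP synthase (−0.05, adjusted p = 0.263), did not pass the test.

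**Figure D2:**
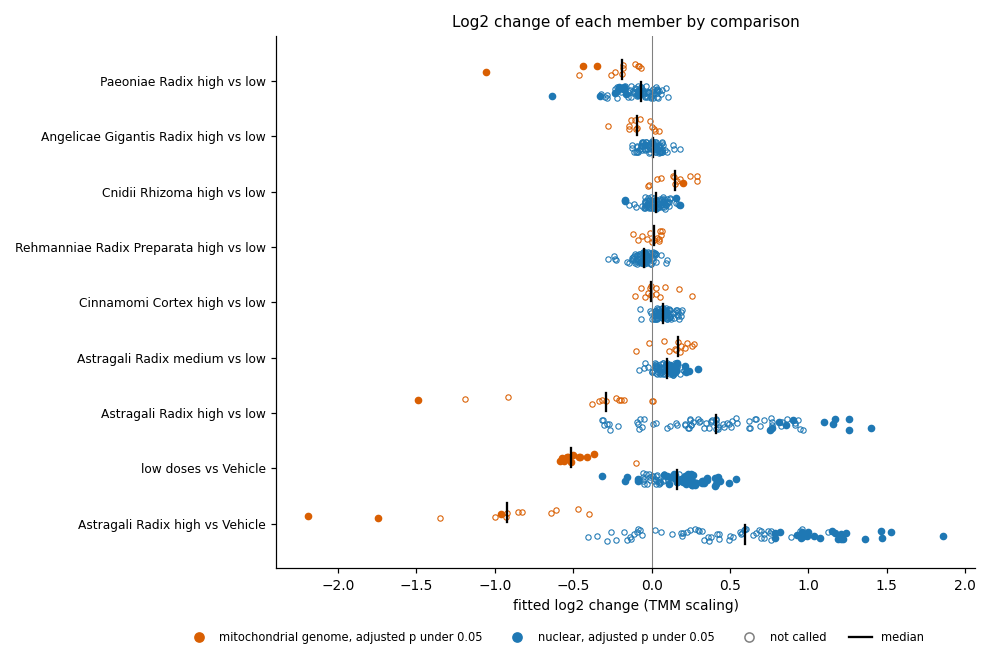
log2 fold change of each mitochondrial (MT) and nuclear oxidative phosphorylation gene in 9 comparisons, filled where the adjusted p was below 0.05, with the median as a black tick. For low doses against vehicle the medians are −0.51 (MT) and 0.16 (nuclear), and for Astragali Radix high against low dose −0.29 and 0.41, a pair that becomes −0.68 and 0.01 when library totals are used as the scale.

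The high doses of the other 5 extracts share the same 3 vehicle libraries and gave values of the same kind. The median mitochondrial difference from vehicle was −0.49 for Cinnamomi Cortex, −0.48 for Rehmanniae Radix Preparata, −0.38 for Cnidii Rhizoma, −0.56 for Angelicae Gigantis Radix and −0.56 for Paeoniae Radix. In each, 12 of 13 messengers were lower (11 for Cinnamomi Cortex), where 12.5%, 10.3%, 18.1%, 9.01% and 12.1% of all genes tested were lower in the same order, and MT-ND4L was never called. Without vehicle replicate 3 the count was 4 for Cnidii Rhizoma and 6 for Rehmanniae Radix Preparata, and without Cnidii Rhizoma high-dose replicate 1 it was 7. Nuclear genes higher and lower numbered 43 and 2 for Cinnamomi Cortex, 31 and 2 for Rehmanniae Radix Preparata, 38 and 4 for Cnidii Rhizoma, 40 and 1 for Angelicae Gigantis Radix, and 32 and 3 for Paeoniae Radix (13.9%, 12.3%, 20.2%, 11.5% and 15% of all genes tested were higher). Without vehicle replicate 3 the nuclear counts in either direction were 16, 27, 20 and 14 for the last 4 extracts in that order. They were 18 for Paeoniae Radix without its high-dose replicate 3 and 11 for Angelicae Gigantis Radix without its high-dose replicate 3.

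Within an extract, a high against a low dose compares libraries of 1 code prefix. Angelicae Gigantis Radix and Rehmanniae Radix Preparata had no mitochondrial and no nuclear member past the edgeR test (1.2% and 1.43% of all genes tested passed in either direction), with 1 and 5 nuclear members and no mitochondrial one at an unadjusted p below 0.05. DESeq2 also gave 0 for both. For Cinnamomi Cortex, 0 members passed edgeR's test and 0 passed that of DESeq2 (6.08% of all genes tested passed), while 19 nuclear members and 0 mitochondrial ones had an unadjusted p below 0.05. Its nuclear median was 0.07, with 77 of 81 changes above 0, where the median over all genes tested was −0.0002. The nuclear genes made up 0.767%, 0.869% and 0.851% of counts at its low dose and 0.846%, 0.863% and 0.876% at its high dose. Low-dose replicate 1 thus lay apart. For Rehmanniae Radix Preparata the nuclear median was −0.05, with 14 of 81 changes above 0. For Cinnamomi Cortex, 1 or 2 genes passed without high-dose replicate 1 or low-dose replicate 2. The medium dose of Cnidii Rhizoma had no member past either test against its low dose (3.11% of all genes tested passed), with 2 nuclear and 0 mitochondrial members at an unadjusted p below 0.05. The shares of all genes given here are at the adjusted threshold of edgeR. No such share is given at the unadjusted one, so the unadjusted counts here and below have no background.

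Paeoniae Radix at the high dose had lower levels of 3 of 13 mitochondrial messengers and of 10 of 81 nuclear genes than at the low dose, and none was higher (4.06% of all genes tested were lower, 5.44% higher). The mitochondrial median was −0.19 and the nuclear median −0.07. The 3 messengers were the neighbours shown above. MT-ATP8 had 871, 435 and 837 CPM at the low dose, 352, 315 and 330 at the medium dose and 321, 309 and 387 at the high dose (−1.06 ± 0.23 high against low, adjusted p = 0.0011). Low-dose replicate 2 lay close to the other doses, and the high and low libraries did not overlap. MT-CO3 had 12500, 10930 and 10300 CPM at the low dose and 7938, 8229 and 8515 at the high dose (−0.43 ± 0.09, adjusted p = 0.000709). MT-ATP6, the channel subunit of the ATP synthase, had 6398, 6149 and 5548 CPM at the low dose and 4353, 4476 and 5210 at the high dose (−0.35 ± 0.12, adjusted p = 0.046), a call kept in 7 of 13 alternatives. The groups did not overlap for either gene. Without high-dose replicate 3, 5 messengers were lower.

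Taken as a share of all mitochondrial messenger counts, which removes their common level, MT-CO3 was 13.2% (12.9% to 13.3%) at the high dose of Paeoniae Radix and 15.6% (15.2% to 15.9%) at the low dose. MT-ATP6 was 7.49% (7.26% to 7.91%) against 8.37% (8.13% to 8.55%), and MT-CO1 went the other way, 24.5% (22.9% to 25.5%) against 22.4% (22.2% to 22.8%). A share can rise because others fall, and no fitted change among the 13 messengers was above 0 (highest −0.07). The medium dose lay near the high dose for MT-ATP6 (7.73%) and MT-CO1 (24.6%) but lay at 15.4% for MT-CO3, near the low dose. At the high dose of Cnidii Rhizoma MT-CO3 also had a smaller share, 13.8% (13.4% to 14.5%) against 15.4% (15.0% to 16.2%). These shares are descriptions with no test.

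**Figure D3:**
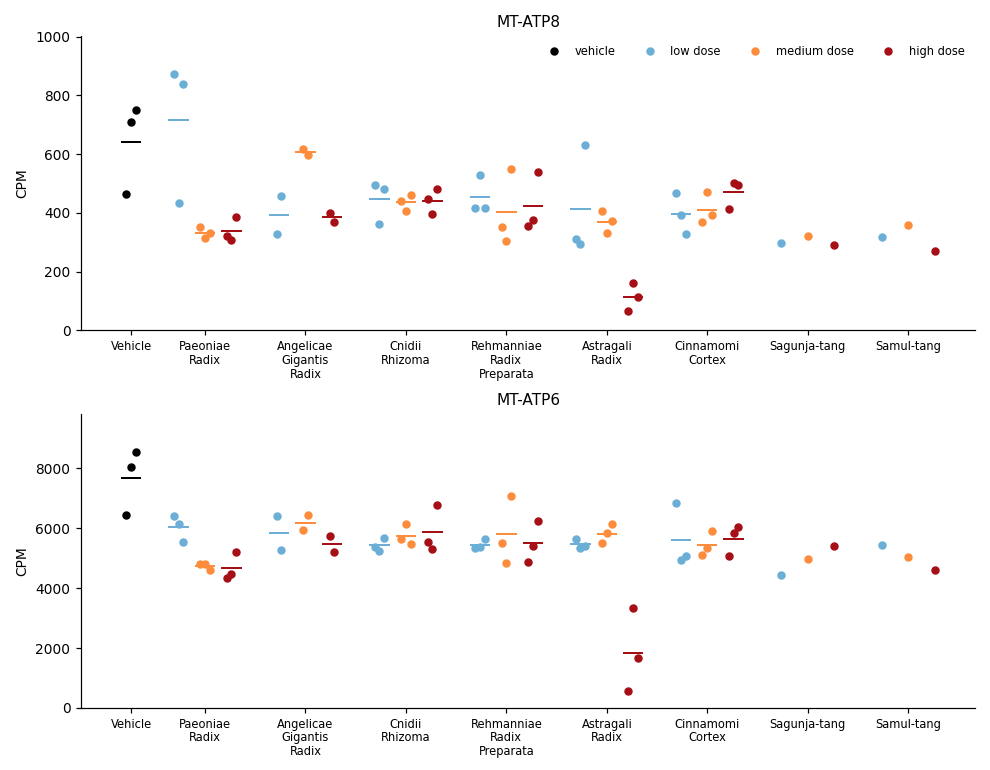
CPM of MT-ATP8 and MT-ATP6 in each library, by extract and dose, with bars at group means. Paeoniae Radix low-dose replicates 1 and 3 lie high for MT-ATP8 at 871 and 837 CPM, while the high-dose libraries lie at 309 to 387.

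The nuclear genes that fell with Paeoniae Radix were 1 of complex I, 2 of complex III, 3 of complex IV and 4 of complex V, and none of complex II. The largest change was that of UQCRHL, an intronless copy of the complex III hinge protein gene UQCRH whose reads may be shared with its parent, at 13.1, 7.90 and 12.3 CPM at the low dose and 6.29, 7.35 and 7.43 at the high dose (−0.64 ± 0.14, adjusted p = 0.00163). ATP5MG, a membrane subunit of the ATP synthase, had 293, 244 and 287 CPM at the low dose and 202, 210 and 237 at the high dose (−0.33 ± 0.06, adjusted p = 0.000206). In both genes low-dose replicate 2 was the lowest of its group, and the groups did not overlap. ATP5IF1 had 122, 123 and 125 CPM at the low dose and 96.9, 114 and 112 at the high dose (−0.18 ± 0.04, adjusted p = 0.00656). NDUFA5, an accessory subunit of complex I, had 57.6, 58.0 and 60.1 CPM at the low dose and 46.2, 51.2 and 54.9 at the high dose (−0.19 ± 0.06, adjusted p = 0.025). High-dose replicate 1 was the lowest library for these 2 genes. The other 6 were ATP5MC1 (−0.24), one of 3 genes for the rotating c subunit, COX6B1 (−0.21), ATP5MF (−0.21), COX7C (−0.18), COX7B (−0.16) and UQCRC2 (−0.09). The number that fell was 2 without high-dose replicate 1, 6 without high-dose replicate 2, 5 without low-dose replicate 1 and 3 without low-dose replicate 3, and 21 nuclear genes passed without high-dose replicate 3.

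While these messengers fell with Paeoniae Radix, the ribosomal RNAs of the organelle rose. MT-RNR1, of the small mitochondrial ribosomal subunit, changed by 0.50 ± 0.09 (adjusted p = 4.07e-05) and MT-RNR2, of the large one, by 0.26 ± 0.07 (adjusted p = 0.0139). The ratio of mitochondrial ribosomal to messenger counts was 0.272, 0.228 and 0.237 at the high dose, 0.229, 0.190 and 0.196 at the medium dose and 0.158, 0.181 and 0.191 at the low dose. The high dose lay above the low dose in every library. In vehicle the ratio was 0.168 to 0.176.

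**Figure D4:**
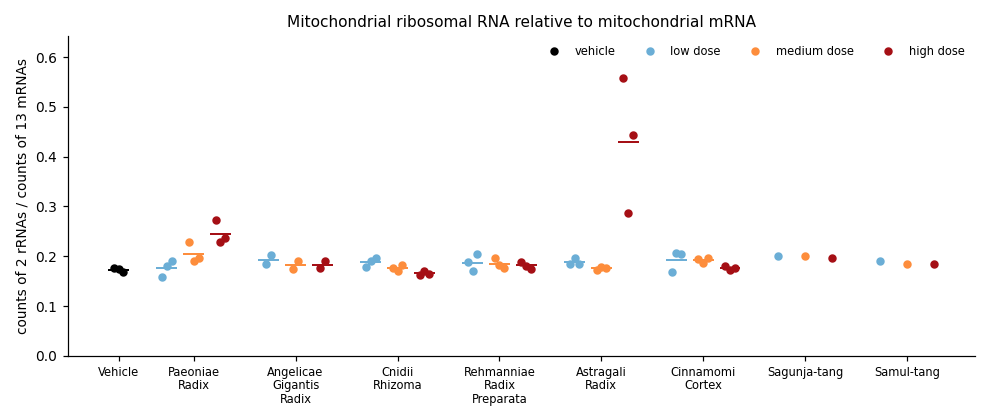
Ratio of counts of the 2 mitochondrial ribosomal RNAs to counts of the 13 mitochondrial messengers in each library, by extract and dose. High-dose Paeoniae Radix libraries lie at 0.228 to 0.272 against 0.158 to 0.191 at the low dose, and high-dose Astragali Radix libraries at 0.287 to 0.558.

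Cnidii Rhizoma, which changed 12.1% of all genes upward and 11.6% downward between its low and high dose, had few calls among these genes in the fit of 51 libraries. MT-CO1 was the 1 mitochondrial messenger called, at 15060, 16140 and 15690 CPM at the low dose and 16580, 16950 and 18500 at the high dose (0.20 ± 0.07, adjusted p = 0.0368). That call was lost without high-dose replicate 2 or 3 or low-dose replicate 1 or 3, and with DESeq2, while 4 messengers passed with the groups fitted alone and 9 with no filter on low counts. Of the nuclear genes 2 rose and 2 fell, and with library totals as the scale 0 rose and 6 fell. SDHA had 274, 269 and 265 CPM at the low dose and 226, 237 and 233 at the high dose (−0.17 ± 0.04, adjusted p = 0.000215). ATP5IF1 had 116, 110 and 111 CPM at the low dose and 97.1, 99.5 and 93.5 at the high dose (−0.17 ± 0.05, adjusted p = 0.00354). The groups did not overlap for either gene. COX7B, a small complex IV subunit, had 103, 103 and 102 CPM at the low dose and 113, 110 and 110 at the high dose (0.16 ± 0.05, adjusted p = 0.0221). ATP5PF had 49.8, 48.0 and 52.1 CPM at the low dose and 56.4, 54.6 and 53.4 at the high dose (0.18 ± 0.07, adjusted p = 0.0449). The call of ATP5PF was kept in 5 of 13 alternatives and that of COX7B in 9. SDHA fell without a call for its partner in the catalytic part of complex II, SDHB, or for any other complex II gene. Set against Rehmanniae Radix Preparata, the difference in dose effect passed for ATP5IF1 alone among the members (−0.18, edgeR, 12.3% of all genes tested passed). It was lost without replicate 1 of any of the 4 groups, without Cnidii Rhizoma low-dose replicate 2 or high-dose replicate 3, and without Rehmanniae Radix Preparata high-dose replicate 2 or low-dose replicate 3, and without Cnidii Rhizoma low-dose replicate 3 another gene passed, in the opposite direction.

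Astragali Radix at the medium dose raised 11 of 81 nuclear genes over the low dose and lowered none (7.24% of all genes tested rose, 9.3% fell). The nuclear median was 0.10. No mitochondrial messenger passed edgeR's test, or that of DESeq2, with 3 of 13 at an unadjusted p below 0.05 and a median of 0.17, but 8 passed edgeR's test with these groups fitted alone and 10 with no filter on low counts. The 11 were ATP5PD, ATP5F1A, ATP5F1B and ATP5F1C of the ATP synthase, NDUFB9, NDUFA8, NDUFA9 and NDUFV2 of complex I, SDHB of complex II, and UQCRC1 and CYC1 of complex III. ATP5PD, of the peripheral stalk, had 65.7, 89.3 and 82.3 CPM at the low dose and 90.0, 96.6 and 92.6 at the medium dose (0.29 ± 0.06, adjusted p = 0.000758). NDUFB9, an accessory subunit, had 310, 312 and 343 CPM at the low dose and 387, 355 and 350 at the medium dose (0.24 ± 0.05, adjusted p = 0.00173). Neither gene overlapped between the doses. With library totals as the scale 3 nuclear genes rose, without low-dose replicate 1 or 2 there were 6, without medium-dose replicate 3 there were 7, and without low-dose replicate 3 there were 22.

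At the high dose of Astragali Radix the mitochondrial messengers made up 1.28%, 5.22% and 5.41% of counts, all below the 5.76% to 8.56% of the 54 other treated libraries. On the TMM scale of the fit with the low dose, only replicate 1 was low, with all 13 messengers below every low-dose library and a median of −2.06 against the low-dose mean. The medians of replicates 2 and 3 were 0.05 and 0.12, with 5 and 8 messengers above every low-dose library and 3 and 4 below. The shares of all genes tested above and below were 44.4% and 48.2% in replicate 1. They were 42.7% and 48.6% in replicate 2, and 48.1% and 45.2% in replicate 3. The 81 nuclear genes made up 0.831%, 0.680% and 1.22%, so 1 library lay above and 1 below the range of those 54 libraries (0.767% to 0.914%). The log2 ratio of the pools was 0.617, 2.94 and 2.15, against 2.96 ± 0.11 (SD, n = 3) at the low dose, and the groups met only through replicate 2. These libraries also departed from the rest in other ways. The 12 epithelial markers summed to 20715, 13848 and 17585 CPM against 12379 to 12780 at the low dose, with 6 of 12 called higher and 2 lower. The 8 markers of other cells summed to 35.3, 60.5 and 27.9 CPM against 8.58 to 8.95, mostly CD68 (2.90 ± 0.35, adjusted p = 0.00129), a lysosomal protein of macrophages that other cells also make, and COL1A1 (2.20 ± 0.32, adjusted p = 0.00251), while PTPRC, CD3E, DCN and COL3A1 stayed near 0. Protein-coding genes whose transcripts had a median length under 1000 bases had a median change of 0.27 and longer genes −0.02 (Spearman's rho between length and change −0.21 over all genes, across genes that are not independent). Among the nuclear members the 2 medians were 0.42 (63 short genes) and 0.37 (18 long genes). The part of these differences in the results that follow was not tested.

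MT-ATP8 was the 1 mitochondrial messenger past the test between the high and low dose of Astragali Radix (18.3% of all genes tested fell, 21.9% rose). It had 310, 294 and 632 CPM at the low dose and 66.9, 160 and 113 at the high dose (−1.49 ± 0.42, adjusted p = 0.028), with no overlap, and the call was lost without high-dose replicate 1 or without low-dose replicate 1 or 3, while 2 messengers passed without high-dose replicate 2. MT-ATP6 had 5640, 5342 and 5410 CPM at the low dose and 569, 3331 and 1653 at the high dose (−1.19 ± 0.56, adjusted p = 0.127). MT-CO3 had 10440, 11400 and 9961 CPM at the low dose and 1107, 5567 and 6082 at the high dose (−0.91, adjusted p = 0.249). All 3 high-dose libraries lay below all low-dose ones for these genes, but they lay far from each other. MT-CO1 had 4592, 13570 and 18290 CPM at the high dose and 16790, 16330 and 15020 at the low dose (0.01, adjusted p = 0.993), so replicate 1 lay far below and replicate 3 above.

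Within the mitochondrial pool, the shares of MT-CO3, MT-ATP6 and MT-CO1 also differed, while that of MT-ATP8 overlapped between the doses. MT-ATP8 was 0.525%, 0.306% and 0.209% of messenger counts at the high dose and 0.461%, 0.440% and 0.982% at the low dose. MT-CO3 was 10.2% (8.69% to 11.2%) of messenger counts at the high dose of Astragali Radix and 16.0% (15.5% to 17.1%) at the low dose. MT-ATP6 was 4.63% (3.05% to 6.38%) against 8.27% (8.01% to 8.41%). MT-CO1 was 31.9% (26.0% to 36.0%) against 24.3% (23.3% to 25.0%). The 3 high-dose libraries thus held less of the MT-ATP6 and MT-CO3 messengers and more of MT-CO1 relative to the pool, whatever its size. The ribosomal to messenger ratio was 0.558, 0.287 and 0.444 at the high dose and 0.185, 0.196 and 0.184 at the low dose, without overlap, although neither MT-RNR1 (1.32 ± 0.62, adjusted p = 0.13) nor MT-RNR2 (0.61 ± 0.41, adjusted p = 0.274) passed the test.

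Of the 81 nuclear genes, 11 rose and 0 fell between the low and high dose of Astragali Radix, where 21.9% of all genes tested rose and 18.3% fell, so no larger share of the members rose than of all genes. Their median was 0.41, and that of all genes tested 0.02. This direction depended on the scale. With library totals in place of TMM factors, 4 rose and 5 fell, the nuclear median was 0.01 and that of all genes −0.35. A change of scale shifts members and all genes nearly alike, so their distance on the second scale is no further check. The libraries also differed from each other. On the TMM scale, 76 of 81 nuclear genes in high-dose replicate 3 lay above every low-dose library, as did 48.1% of all genes tested, and their median against the low-dose mean was 1.03. In replicate 1, 41 lay above and 33 below every low-dose library (median 0.12), against 44.4% and 48.2% of all genes tested. In replicate 2, 16 lay above and 49 below (median −0.11), against 42.7% and 48.6%. In CPM the 3 medians were −0.17, −0.42 and 0.53. The number of nuclear genes past the test was 7 without high-dose replicate 1, 27 without replicate 2, 22 without replicate 3 (11 higher and 11 lower), and 1, 1 and 2 without low-dose replicates 1, 2 and 3.

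**Figure D5:**
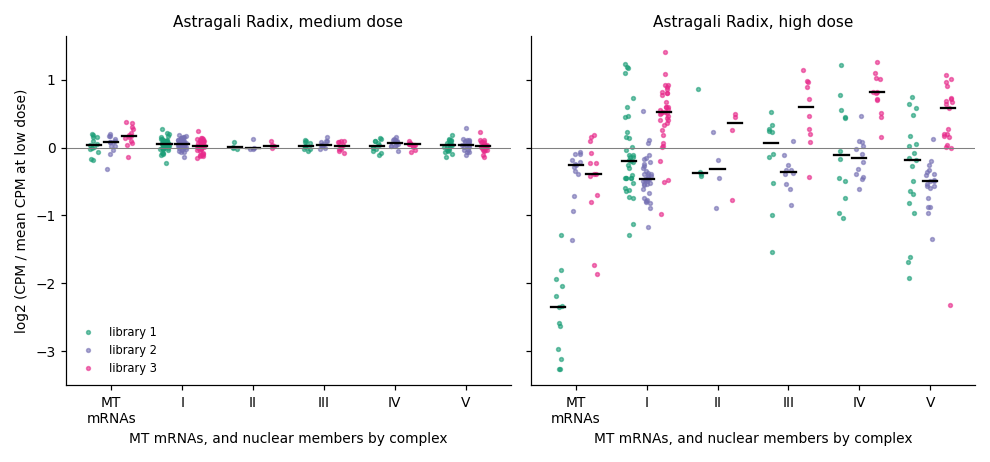
log2 of CPM over the low-dose mean for each oxidative phosphorylation gene in the medium-dose and high-dose libraries of Astragali Radix, with mitochondrial genes and nuclear genes of complexes I to V apart. High-dose replicate 1 has all 13 mitochondrial messengers below the low dose (median −2.35). Replicate 3 has 69 of 81 nuclear genes above every low-dose library, and replicate 2 has 67 of 81 below. A share over all genes is given only on the TMM scale, 48.1% above in replicate 3 and 48.6% below in replicate 2.

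The 11 nuclear genes were 4 of complex I, 1 of complex II, 1 of complex III, 4 of complex IV and 1 of complex V. NDUFB9 had 310, 312 and 343 CPM at the low dose and 730, 466 and 594 at the high dose (1.26 ± 0.20, adjusted p = 0.00347). SDHB, the iron-sulfur subunit of succinate dehydrogenase, had 73.5, 76.5 and 80.0 CPM at the low dose and 139, 89.8 and 105 at the high dose (0.90 ± 0.18, adjusted p = 0.00894). Both genes lay above the low dose in all 3 high-dose libraries even in CPM, with replicate 2 the lowest. COX6A1, the non-muscle form of a complex IV subunit, had 182, 189 and 183 CPM at the low dose and 248, 197 and 299 at the high dose (0.81 ± 0.22, adjusted p = 0.023). UQCRC1, a core protein of complex III, had 96.8, 97.7 and 102 CPM at the low dose and 118, 106 and 163 at the high dose (0.77 ± 0.23, adjusted p = 0.0353). ATP5F1B had 511, 515 and 537 CPM at the low dose and 587, 566 and 857 at the high dose (0.75 ± 0.24, adjusted p = 0.0433). In these 3 genes replicate 2 exceeded the low dose only slightly. The other 6, whose CPM values overlapped, were NDUFA1 (1.40 ± 0.37, adjusted p = 0.0221), COX6C (1.26), NDUFA13 (1.17), COX5B (1.16), NDUFB11 (1.10) and COX7A2L (0.86).

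Other members named by rule did not pass the test. SDHA had 266, 261 and 278 CPM at the low dose of Astragali Radix and 205, 145 and 157 at the high dose (−0.30 ± 0.16, adjusted p = 0.18). NDUFS1 had 145, 154 and 159 CPM at the low dose and 115, 106 and 77.4 at the high dose (−0.26 ± 0.15, adjusted p = 0.201). The high-dose libraries lay below all low-dose ones for both genes in CPM, yet neither passed the test after scaling, and UQCRC2 (−0.28, adjusted p = 0.317) did not either. COX4I1 (0.83, adjusted p = 0.0571), NDUFA4 (0.91, adjusted p = 0.0619), NDUFB8 (0.91, adjusted p = 0.0506), CYC1 (0.66, adjusted p = 0.185), UQCRFS1 (0.25, adjusted p = 0.339), COX5A (0.23, adjusted p = 0.682), ATP5F1A (0.21, adjusted p = 0.517) and ATP5IF1 (−0.09, adjusted p = 0.825) also missed the threshold.

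Against vehicle, the high dose of Astragali Radix had 3 of 13 mitochondrial messengers lower (19.1% of all genes tested were lower): MT-ATP8 (−2.19 ± 0.36, adjusted p = 0.00362), MT-ATP6 (−1.75, adjusted p = 0.0415) and MT-ND6 (−0.96, adjusted p = 0.0397). Without any one of the vehicle replicates 1, 2 and 3, 1 messenger passed. Of the nuclear genes 22 were higher and 0 lower (23.2% of all genes tested were higher), and with library totals as the scale 11 were higher and 3 lower. Leaving out 1 library changed the nuclear count to 7, 5 and 4 without vehicle replicates 1, 2 and 3, and to 35 without high-dose replicate 3, 23 of them higher and 12 lower. The dose effect was also set against that of Cinnamomi Cortex, whose libraries carry the same code prefix. The difference was below 0 for MT-ATP8 (−1.76 ± 0.48, adjusted p = 0.0138) and above 0 for 11 nuclear genes (39.5% of all genes tested passed, 20.8% above 0 and 18.7% below). With library totals as the scale, 1 nuclear gene passed above 0 and 6 below. Without Astragali Radix high-dose replicate 3, 10 passed above 0 and 18 below, and without its replicate 2, 28 passed above 0. The count was 4 or 5 without Astragali Radix low-dose replicate 1 or 2, without any high-dose replicate of Cinnamomi Cortex or without its low-dose replicate 2 or 3.

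Genes that serve the mitochondrial genome changed in both directions at the high dose of Astragali Radix, where 21.9% of all genes tested rose and 18.3% fell. The calls for these lists, here and in the next paragraph, are on the TMM scale only, with no library left out. With library totals as the scale, 2018 of all genes tested rose and 4700 fell at this dose, with a median of −0.35. How the lists depend on scale or library was not tested. Of 9 genes for the transcription of mitochondrial DNA, 2 rose and 6 fell. POLRMT, the RNA polymerase of the organelle, rose by 0.80 ± 0.21 (adjusted p = 0.0201) and TFB2M, its initiation factor, by 0.70. TFAM, which packages mitochondrial DNA and opens its promoters, fell by 0.67 ± 0.14 on the TMM scale (adjusted p = 0.00848), with means of 113 CPM at the low dose and 55.2 at the high dose on library totals, and MTERF2, MTERF3 and MTERF1 of the termination factor family fell by 1.13, 0.94 and 0.88. Of 23 genes for processing and stability of its RNA, 3 rose (HSD17B10, a part of the enzyme that trims transfer RNAs, FASTKD5 and REXO2) and 5 fell, among them PTCD3, FASTKD3 and PNPT1. FASTKD5, known for processing the junctions that lack a transfer RNA, rose by 0.83 ± 0.18 (adjusted p = 0.0115). LRPPRC, which stabilises mitochondrial messengers, had −0.69 ± 0.27 (adjusted p = 0.0805). Of 78 mitochondrial ribosomal proteins 13 rose and 2 fell, with MRPL18 changed most (2.84 ± 0.40), and of 49 assembly factors 8 rose and 5 fell. Of 13 chaperones and proteases 4 rose, among them HSPD1, the chaperonin of the matrix (1.55 ± 0.17), HTRA2 and LONP1, and 1 fell (OMA1). Among 7 regulators tested, ESRRA rose by 1.19 and PPARGC1B fell by 2.69, and PPARGC1A did not pass the filter on low counts. The citric acid cycle had 1 of 13 higher (OGDH) and 1 lower (SUCLG2), and mitochondrial DNA replication 1 of 11 higher (RNASEH1) and 1 lower (LIG3).

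For Paeoniae Radix, where 5.44% of all genes tested rose and 4.06% fell, none of the 9 transcription genes passed between the high and low dose, with TFAM at −0.004 and POLRMT at −0.002, and 1 of 78 ribosomal proteins rose and 1 fell. Assembly factors had 0 of 49 higher and 4 lower, among them PET100, PET117 and SDHAF3. For Cnidii Rhizoma, where 12.1% of all genes tested rose and 11.6% fell, 8 of 49 assembly factors rose and 2 fell, 11 of 78 ribosomal proteins rose and 1 fell, and 5 of 23 RNA processing genes rose and 0 fell. CYCS, the mobile carrier cytochrome c, rose there by 0.28 ± 0.05 (adjusted p = 3.29e-06). For the medium dose of Astragali Radix (7.24% of all genes tested rose, 9.3% fell) 17 of 78 ribosomal proteins rose and 1 fell, and 5 of 13 citric acid cycle genes rose and 0 fell. Low doses against vehicle gave 26 of 49 assembly factors higher and 2 lower, and 23 of 78 ribosomal proteins higher and 11 lower, where 16.6% of all genes tested were higher and 15.9% lower. POLRMT was higher there by 0.18 ± 0.04 (adjusted p = 0.000401), while TFAM (0.03, adjusted p = 0.469) and LRPPRC (0.01, adjusted p = 0.828) did not pass.

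The isoform genes showed the pattern of a non-muscle cell. COX4I1 averaged 159 CPM against 0.0006 for COX4I2, a form of lung and hypoxia. COX6A1 averaged 183 CPM against 0 for COX6A2, the heart and muscle form, and COX6B1 far exceeded COX6B2, the testis form, at 0.518. COX7A1, a further muscle form, averaged 0.134 CPM, while COX7A2 averaged 91.4 CPM. The 3 genes for the same c subunit of the ATP synthase were all present, ATP5MC2 at 40.8 CPM per kilobase, ATP5MC1 at 18.3 and ATP5MC3 at 16.5. At the low doses ATP5MC1 (0.26 ± 0.06, adjusted p = 0.000393) and ATP5MC3 (0.41 ± 0.07, adjusted p = 5.41e-06) were higher than in vehicle, and ATP5MC2 did not pass (−0.01, adjusted p = 0.925). A difference between the 3 genes was not tested.

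The formulas, with 1 library per dose, have no replicate check and are given as differences in log2 CPM. Between the high and low dose of Sagunja-tang the median difference was 0.12 for the mitochondrial messengers and −0.06 for the nuclear genes, against −0.03 over all genes. Its 3 largest differences in each direction, among members at 5 CPM or more, were −0.29 for NDUFA1, −0.27 for ATP5F1E, −0.23 for COX7C, 0.29 for MT-ATP6, 0.24 for MT-ND2 and 0.18 for ATP5MF-PTCD1, a read-through entry that shares exons with both of its genes. For Samul-tang the medians were −0.18 and −0.03, against −0.02 over all genes. There the 3 largest in each direction were −0.43 for MT-ND1, −0.30 for MT-CO3, −0.24 for MT-ND2, 0.12 for NDUFA8, 0.20 for SDHB and 0.40 for ATP5MF-PTCD1.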

How the data were processed

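Counts of RNA-seq reads per gene were analysed in 60 libraries of HT29 cells. The authors deposited 1 table of estimated counts, that is, reads assigned to genes by RSEM 1.3.3, per the submitters' processing notes. These notes also list FastQC 0.11.9, STAR 2.7.3a and Trim Galore 0.6.5, and the build hg38. Reads were 100 bp paired-end from a directional kit, per the labels' protocols. Annotation release and strand setting: not given in the sources used here. Estimated counts divide reads shared by overlapping or near-identical genes. Of the values 8.78% were not whole, and all were rounded, which changed no library total by over 0.000184%. Entries with no gene name held 0.0504% of counts. Of the table's 273 columns, 213 belong to no sample used here and were left out. Symbols came from the identifier table (41209 entries) and GENCODE v29 (15846 more).

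edgeR 4.0.16 (R 4.3.3, limma 3.58.1) fitted 51 libraries in 18 groups with TMM scaling and a low-count filter by group, and Benjamini-Hochberg adjustment over all genes tested. The high dose of Astragali Radix, whose libraries spread far more, was fitted only with the groups compared. SEs are the log2 change over the root of F. Alternatives were DESeq2 1.42.0, no filter, library totals, scaling without mitochondrial genes, a replicate block, a single fit of 54 libraries, the groups compared alone, and leaving out each library. The fit was tested on simulated counts. Genes were named by rule: the 13 mitochondrial messengers, up to 4 nuclear genes per direction and comparison called with no overlap in CPM, 15 fixed subunits, isoform genes and up to 3 genes per pathway list. Other genes named were chosen after their values were seen. Members and lists were chosen with earlier results of these data known. Intervals of counting error are not given, since the spread between libraries exceeds it.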

Additional observations from a re-analysis of the deposited data

Results flagged for a closer look

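The change from low to high dose differed between Astragali Radix and Cinnamomi Cortex for 12 members by an interaction test (edgeR's quasi-likelihood test, adjusted p under 0.05, 3 libraries in each of the 4 groups), where 39.5% of all genes tested passed. With library totals as the scale, 1 nuclear gene passed above 0 and 6 below. The difference in log2 change was -1.76 for MT-ATP8. It was above 0 for the nuclear genes NDUFA1 (1.18), NDUFB9 (1.10), COX6C (1.09), COX5B (1.06), NDUFA13 (1.05), NDUFB11 (0.99), COX7A2L (0.79), SDHB (0.79), COX6A1 (0.74), UQCRC1 (0.68) and ATP5F1B (0.64). Between Cnidii Rhizoma and Rehmanniae Radix Preparata, the same kind of test separated 1 member, ATP5IF1, with a difference of -0.18, where 12.3% of all genes tested passed. That call was lost when any one of 8 libraries was left out, and without Cnidii Rhizoma low-dose replicate 3 a gene passed in the opposite direction.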

How the results depend on the processing

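The counts of members past the threshold depended on the libraries, the fit and, in some comparisons, the scale. With library totals, 28 of 34 counts stayed within 1.5 times, 4 moved further and 2 changed their main direction. Scaling from genes off the mitochondrial genome left all 34 counts within 1.5 times. For the log2 ratio of the 2 pools, high minus low dose, the alternatives were leaving out 1 library and a median over members. Each moved it by less than the larger SD of the groups compared. For Astragali Radix that SD was 1.18 and the difference -1.05, so this limit could not detect a loss of the difference. Single genes were followed only where already called between the high and low dose, the nuclear ones also with no overlap in CPM. These kept their direction under every alternative run, with the call kept in 162 cases and lost in 54. Because of that choice a change of direction was unlikely, and the other named genes were not followed in this way.

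With library totals, nuclear counts were 9 for Astragali Radix high against low (4 higher, 5 lower), 14 for its high dose against vehicle (11 and 3), 3 for its medium dose, 7 for its difference from Cinnamomi Cortex (1 and 6) and 2 for the difference of Cnidii Rhizoma from Rehmanniae Radix Preparata, and the mitochondrial count of Cnidii Rhizoma high against low was 0. DESeq2 gave 20, 17 and 2 nuclear genes for Astragali Radix high against low and the 2 differences between extracts, and 0 mitochondrial ones for Cnidii Rhizoma.

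With no filter on low counts, mitochondrial counts for high against low were 10 (Paeoniae Radix), 9 (Cnidii Rhizoma), 3 (Angelicae Gigantis Radix), 3 (Cinnamomi Cortex) and 1 (Rehmanniae Radix Preparata), and 10 and 2 for the medium doses of Astragali Radix and Cnidii Rhizoma. Nuclear counts were 23 (Paeoniae Radix), 7 (Cnidii Rhizoma), 7 (Cinnamomi Cortex), 4 (Rehmanniae Radix Preparata), and 28 and 1 for those medium doses. The difference of Cnidii Rhizoma from Rehmanniae Radix Preparata then gave 6 mitochondrial and 5 nuclear genes, all 5 in the opposite direction. The cause was not tested.

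Fitted with the groups compared alone, counts were 4 (mitochondrial, Cnidii Rhizoma high against low), 8 (mitochondrial, Astragali Radix medium against low), 6 and 2 (nuclear, Paeoniae Radix and Rehmanniae Radix Preparata high against low), 27 (nuclear, Angelicae Gigantis Radix against vehicle), and 1 mitochondrial and 2 nuclear genes (1 in each direction) for Cnidii Rhizoma against Rehmanniae Radix Preparata. In 1 fit of all 54 replicated libraries, where the spread of the high-dose Astragali Radix libraries is shared by every comparison, its counts were 3 mitochondrial and 58 nuclear (high against low), 11 and 62 (against vehicle), and 3 and 39 (against Cinnamomi Cortex), and 0 nuclear for its medium dose. High against low then gave 1 mitochondrial and 0 nuclear genes for Paeoniae Radix, 0 and 0 for Cnidii Rhizoma, and 0 nuclear for its difference from Rehmanniae Radix Preparata. Against vehicle it gave 0 and 4 for Cinnamomi Cortex, 0 and 0 for Rehmanniae Radix Preparata, 0 and 6 for Cnidii Rhizoma, 1 and 0 for Angelicae Gigantis Radix, 3 and 3 for Paeoniae Radix, and 6 and 13 for the low doses.

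Leaving out 1 library at a time, high against low gave ranges of 0 to 2 mitochondrial and 1 to 27 nuclear genes for Astragali Radix, 2 to 5 and 2 to 21 for Paeoniae Radix, 0 to 2 mitochondrial for Cnidii Rhizoma and 0 to 2 nuclear for Cinnamomi Cortex, and 6 to 22 nuclear for the medium dose of Astragali Radix. Against vehicle the ranges were 1 to 4 and 4 to 35 (Astragali Radix), 4 to 12 and 27 to 46 (Cnidii Rhizoma), 6 to 13 and 16 to 42 (Rehmanniae Radix Preparata), and, for nuclear genes, 11 to 45 (Angelicae Gigantis Radix), 14 to 42 (Paeoniae Radix) and 31 to 55 (low doses). The differences between extracts gave 1 to 2 mitochondrial and 4 to 28 nuclear genes (Astragali Radix and Cinnamomi Cortex, 28 with most below 0 without Astragali Radix high-dose replicate 3) and 0 to 1 nuclear (Cnidii Rhizoma and Rehmanniae Radix Preparata, 1 in the opposite direction without Cnidii Rhizoma low-dose replicate 3). Where 1 library of Angelicae Gigantis Radix was left, it was assumed to vary like the other groups.

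Libraries with the same replicate number deviated together little (correlations of their deviations -0.0582 to 0.0987). For Cinnamomi Cortex, high and low, these were 0.0469 to 0.0987 against a mean of -0.0364 between other numbers. For Paeoniae Radix high and vehicle they were -0.0582 to -0.0141 against 0.0164. Whether libraries of the same number shared handling was not tested. A replicate block gave 2 and 5 mitochondrial genes for Astragali Radix high against low and against vehicle, and left the other 32 counts within 1.5 times.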
